A study of Mus musculus with 9 samples.

Results

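Transcripts of the ubiquitin precursor genes Ubb and Rps27a and of the ubiquitin C-terminal hydrolase genes Uchl1 and Uchl3 were followed in mouse retinal ganglion cells (RGCs) under normal and elevated intraocular pressure (IOP). The genes were selected by their symbols, and they were chosen on results that used their FPKM in these same comparisons. Their levels and Log2 fold-changes are therefore given as a description and carry no test. They are 4 of the 23997 gene symbols in the deposited data.

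Ubiquitin is a small protein that is attached to other proteins, many of which are then degraded by the proteasome. Cells make it only as precursors, either as head-to-tail ubiquitin repeats, as from Ubb, or as ubiquitin fused to a ribosomal protein, as from Rps27a, and deubiquitinases release the free form. Uchl1, also known as PGP9.5, is a hydrolase of small ubiquitin adducts that is very abundant in neurons and is used in the retina as a marker that includes RGCs, whereas Uchl3 is its widely expressed relative and also acts on the ubiquitin-like protein Nedd8.

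RGCs were isolated from retinas of wild type C57BL/6J mice by a 4-step immunopanning procedure that ended with selection for Thy1.2. Eyes received saline (Control) or microbeads in the anterior chamber at 6 weeks of age and were collected after 2 weeks, at 8 weeks by the sample labels. Microbead eyes were assigned to Mild IOP when the increase was above 1 and below 4 mmHg and to Moderate IOP when it was 4 mmHg or more, so the groups were formed by the pressure reached and not by the dose given. RNA from 12 Control, 12 Mild IOP and 6 Moderate IOP retinas was pooled by group, and each pool was split into 3 libraries. The 3 libraries of a group are thus technical replicates of a single pool, and every spread, standard error and p-value below covers technical variation and not variation between animals.

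Values are FPKM (fragments per kilobase of transcript, normalised to the mapped fragments of the library). Depth derived from the confidence intervals of the FPKM was 4590000 to 8230000 fragments per library, and 14182 to 14914 symbols were above 0. Scaling factors between libraries were 0.983 to 1.058. All 13 RGC markers were measured, and their summed level was 1862 to 2024 scaled FPKM in Control, 1407 to 1736 in Mild IOP and 2825 to 3080 in Moderate IOP. Markers of other retinal cells were present in part. The 10 rod genes summed to 623 to 741 in Control, 437 to 471 in Mild IOP and 459 to 483 in Moderate IOP. The 7 amacrine genes summed to 766 to 814, 842 to 901 and 548 to 597 in the same order. The 7 Muller glia genes summed to 515 to 540 in Control, 512 to 584 in Mild IOP and 475 to 501 in Moderate IOP. Dkk3 alone averaged 472, with 485, 509 and 423 scaled FPKM in the same order. Slc1a3 averaged 2.06, 2.94 and 2.11 and Aqp4 1.67, 1.13 and 1.42. None of these genes reached an FDR below 0.1 in any comparison (limma). Among the others, Rlbp1 averaged 4.46, 12.4 and 14.5 scaled FPKM in the same order and rose in Moderate IOP against Control (FDR = 0.068, limma), and Glul averaged 29.98, 23.3 and 46.7 and rose in Moderate IOP against Mild IOP (FDR = 0.012, limma). Bipolar genes summed to 60.7 to 79.3 in Control, 55.8 to 71.9 in Mild IOP and 90.7 to 103 in Moderate IOP. Microglia and macrophage genes summed to 16.7 to 33.4 over all libraries and astrocyte genes to at most 6.80. Endothelial and pericyte genes summed to at most 11.02, with Cldn5 and Cdh5 at 0 in every group. The 9 lens genes summed to 333 to 399 in Control but to 5.94 to 8.99 in Mild IOP and 9.30 to 17.0 in Moderate IOP, where Crygs, Cryba1, Mip and Lim2 were at 0. In bulk RNA of this kind, fewer cells of a type and less RNA per cell cannot be told apart.

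Ubb and Rps27a both encode ubiquitin, and units of each gene are shown so that the likeness can be seen. In the GENCODE M21 annotation of GRCm38 (mm10), Ubb carries 4 copies of the 228-base ubiquitin unit in a single coding exon on the plus strand of chromosome 11. Rps27a (chromosome 11, minus strand) carries 1, split over 4 exon segments. Capitals mark every base that differs from the first Ubb unit.
Ubb unit 1, chr11:62552146-62552373, plus strand: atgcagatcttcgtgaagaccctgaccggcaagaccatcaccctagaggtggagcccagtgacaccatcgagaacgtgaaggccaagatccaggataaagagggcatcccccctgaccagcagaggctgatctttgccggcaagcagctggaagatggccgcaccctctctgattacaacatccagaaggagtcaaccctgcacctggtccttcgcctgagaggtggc
Ubb unit 4, chr11:62552830-62553057, plus strand: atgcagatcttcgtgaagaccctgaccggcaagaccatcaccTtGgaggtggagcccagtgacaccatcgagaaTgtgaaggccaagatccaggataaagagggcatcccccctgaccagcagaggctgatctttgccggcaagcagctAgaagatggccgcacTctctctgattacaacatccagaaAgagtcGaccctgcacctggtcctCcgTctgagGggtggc
Rps27a, chr11:29546384-29547728, minus strand, spliced: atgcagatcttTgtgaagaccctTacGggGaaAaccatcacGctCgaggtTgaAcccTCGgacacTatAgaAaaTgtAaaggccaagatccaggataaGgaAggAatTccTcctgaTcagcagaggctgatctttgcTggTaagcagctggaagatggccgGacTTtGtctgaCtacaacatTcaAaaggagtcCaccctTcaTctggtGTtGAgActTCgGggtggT
Each unit has 76 codons. Against the first Ubb unit, Ubb unit 4 differed at 10 bases (95.6% identity) and Rps27a at 44 (80.7%), and all changes were synonymous. The longest uninterrupted run that Rps27a shared with the first Ubb unit was 20 bases.

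Sharing was also counted in words of 100 bases, the length of a read. Of the Ubb transcript, 23.7% of such words occurred more than once within Ubb itself and 52.4% also occurred in other genes, all of these in the transcribed Ubb pseudogene Gm1821 and 15.6% in Gm8797. Of the Rps27a transcript, 62.6% of words occurred elsewhere, mostly in the pseudogenes Gm8430 (43.5%) and Rps27a-ps2 (39.7%), neither of which has a row in the files. The hydrolases were more distinct. For Uchl1, 12.3% of words lay on the antisense gene Uchl1os, which was listed at 0 to 0.778 FPKM, and for Uchl3, 121 of 804 words were shared with Uchl4. The coding sequences of Uchl1 and Uchl3 were 60.1% identical and held no word in common, whereas those of Uchl3 and the single-exon gene Uchl4 were 96.1% identical. The library kit does not mark strand, so reads of Uchl1 and Uchl1os could not be separated by strand.

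Ubb, a polyubiquitin gene, was the most abundant symbol in 7 of the 9 libraries and made up 1.87 to 3.59% of all summed FPKM. In the other two it ranked second, behind a microRNA entry (Mir1249 at 20.5% of the sum in Mild IOP replicate 2 and Mir8104 at 9.14% in Moderate IOP replicate 3). In Control replicates 1, 2 and 3, Ubb stood at 19856, 20785 and 13708 FPKM. In Mild IOP it stood at 13868, 13553 and 15168 FPKM, and in Moderate IOP at 15710, 10844 and 18548 FPKM. The lowest and the highest Moderate IOP libraries, made from the same pool, differed 1.71-fold, and the lowest Control library lay within the Mild IOP range.

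After scaling, Ubb averaged 17818 ± 3637 FPKM for Control, 13512 ± 912 for Mild IOP and 15221 ± 4064 for Moderate IOP (SD, n = 3 libraries). The Log2 fold-change, taken on log2(scaled FPKM + 1), was −0.38 ± 0.21 (SE) for Mild IOP against Control, −0.24 ± 0.21 for Moderate IOP against Control and 0.14 ± 0.21 for Moderate IOP against Mild IOP. The libraries of every 2 groups overlapped, so the order Control, Moderate IOP, Mild IOP of the means is not separated by the spread. Without Moderate IOP replicate 2 the difference between the IOP groups was 0.36, without Moderate IOP replicate 3 it was −0.03, and with FPKM expressed relative to their sum it was −0.10.

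The deposited files list a second row at the Ubb locus. The Ubb row spans chr11:62551504-62553212, and the pseudogene Gm1821 has a row at chr11:62551504-62553206 in addition to its own locus at chr14:46084027-46084957. The chromosome 11 row of Gm1821 held 6123, 6099 and 4852 FPKM in Control, 4609, 4114 and 5432 in Mild IOP and 5238, 3649 and 5485 in Moderate IOP. That was 22.7 to 26.4% of the sum at the locus in every library, in a near-constant proportion. The chromosome 14 row held 2841 to 6433 FPKM.

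Adding the chromosome 11 row of Gm1821 to Ubb, an alternative chosen after seeing the data, gave a scaled level of 23418 ± 4299 for Control, 18005 ± 1572 for Mild IOP and 20070 ± 5089 for Moderate IOP (SD, n = 3 libraries). The Log2 fold-changes became −0.37, −0.24 and 0.13 in the order given above, close to those of Ubb alone. The stacked plot of the locus shows both rows.

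**Figure D1:**
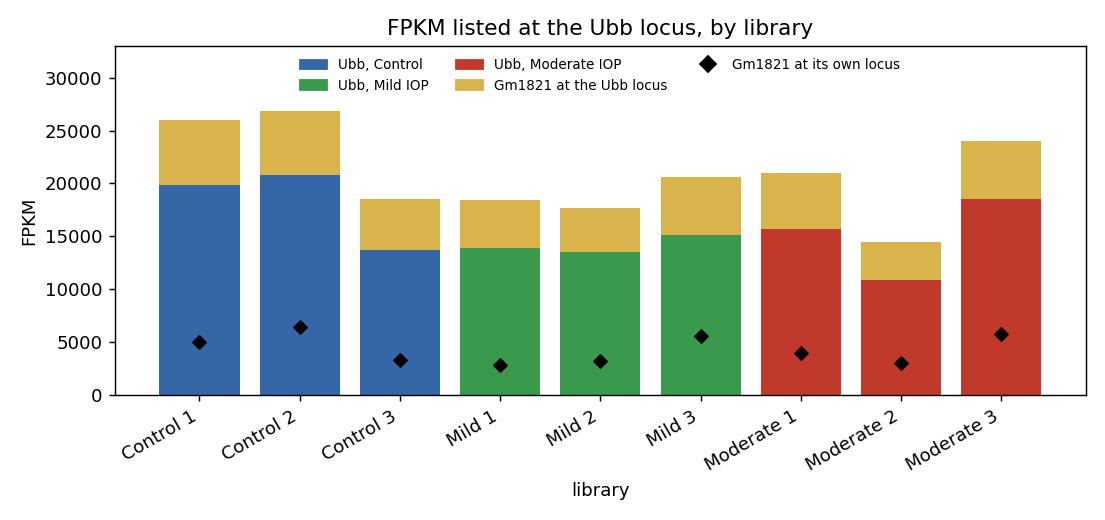
FPKM (y axis) of the Ubb row (coloured by group) and of the Gm1821 row at the same locus (yellow, stacked) in each of the 9 libraries (x axis), with the Gm1821 row at its own locus as black diamonds. The yellow part is 22.7 to 26.4% of each bar, and the bars of Moderate IOP run from 14493 to 24032 FPKM, a wider range than in either other group.

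The precision the files state for Ubb did not follow depth. The 95% interval of Ubb had a half-width of 4.15 to 4.20% of its FPKM in all 9 libraries, equal to 2270 to 2321 fragments when converted as for a simple count, although the product of FPKM, length and depth was 95687 to 256270 fragments. Intervals of Ubb from libraries of the same pool lay apart in 2 of 3 pairs in Control, 2 of 3 in Mild IOP and 3 of 3 in Moderate IOP, so the spread between libraries was wider than these intervals. What sets the constant half-width was not tested.

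Rps27a encodes ubiquitin joined to a protein of the small ribosomal subunit. Its row spans chr11:29545842-29548040. It stood at 140, 296 and 275 FPKM in Control, at 159, 116 and 190 in Mild IOP and at 242, 261 and 252 in Moderate IOP. All Moderate IOP libraries were above all Mild IOP libraries, but Control spanned both, with replicate 1 beside Mild IOP and replicates 2 and 3 above all of Moderate IOP. Control replicate 1 had an interval of 127 to 154 FPKM and replicate 2 of 277 to 315, so within a single pool the libraries differed 2.11-fold and beyond the interval of each.

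Scaled, Rps27a averaged 234 ± 83.3 FPKM for Control, 148 ± 36.4 for Mild IOP and 255 ± 7.82 for Moderate IOP (SD, n = 3 libraries). The Log2 fold-change was −0.62 ± 0.26 (SE) for Mild IOP against Control, 0.20 ± 0.26 for Moderate IOP against Control and 0.81 ± 0.26 for Moderate IOP against Mild IOP. Control and Moderate IOP are neighbours that did not differ beyond their spread, and without Control replicate 1 their difference changed sign to −0.14. The difference between the IOP groups ranged from 0.62 to 0.98 when single libraries were left out. Ubb was 41.5 to 142 times as abundant as Rps27a per length of transcript, and the ratio was highest in Control replicate 1.

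Rps27a was set beside the 32 other tested genes for small ribosomal subunit proteins. None rose or fell in Moderate IOP against Control, 2 fell in Mild IOP against Control, and 28 rose with none falling in Moderate IOP against Mild IOP. Over all genes tested, 0.383% fell in Mild IOP against Control and 5.8% rose in Moderate IOP against Mild IOP. The median Log2 fold-change of the 32 genes was −0.66, 0.29 and 0.96 for Mild IOP against Control, Moderate IOP against Control and Moderate IOP against Mild IOP, beside 0.0062, 0.0040 and −0.016 over all 13043 genes tested. With Rps27a included, it ranked 18, 10 and 11 from the lowest of 33 in these comparisons and 22 by mean level. The count of 28 was 26 without scaling and 12 with FPKM relative to their sum, with no gene lower under either.

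Relative to the sum of those genes, Rps27a was 2.28% in Control replicate 1, 4.10% in Control replicate 2 and 4.25% in Control replicate 3. It was 3.34, 3.41 and 3.77% in Mild IOP and 3.10, 3.30 and 3.11% in Moderate IOP. The share of Rps27a in Moderate IOP was thus below that of every Mild IOP library even though its level was above. The closest libraries were Moderate IOP replicate 2 (3.30%) and Mild IOP replicate 1 (3.34%). Their interval half-widths for Rps27a were 6.75% and 9.42% of its FPKM, so these shares were not separated beyond the intervals. Control spanned both groups. The summed list in Control replicate 1 was 6036 scaled FPKM, beside 7039 and 6439 in Control replicates 2 and 3.

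Uchl1, the neuronal hydrolase, showed the tightest grouping of the selected genes. Its row spans chr5:66676121-66687234. It stood at 397, 390 and 412 FPKM in Control, at 343, 307 and 376 in Mild IOP and at 551, 606 and 591 in Moderate IOP. Every Mild IOP library was below every Control library and every Moderate IOP library above, before and after scaling. The closest pair was Mild IOP replicate 3 and Control replicate 2, whose intervals (353 to 399 and 369 to 411 FPKM) overlapped.

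Scaled, Uchl1 averaged 394 ± 14.98 FPKM for Control, 325 ± 35.4 for Mild IOP and 589 ± 25.2 for Moderate IOP (SD, n = 3 libraries). The Log2 fold-change was −0.28 ± 0.11 (SE) for Mild IOP against Control, 0.58 ± 0.11 for Moderate IOP against Control and 0.86 ± 0.11 for Moderate IOP against Mild IOP. These correspond to levels 1.21-fold lower, 1.49-fold higher and 1.81-fold higher. With single libraries left out, the ranges were −0.36 to −0.20, 0.56 to 0.62 and 0.78 to 0.94. With FPKM relative to their sum the last 2 differences were 0.44 and 0.62, and the median of all genes moved to −0.12 and −0.23 under that scaling, so Uchl1 less the median was 0.56 and 0.85.

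Uchl1 varied little between libraries of the same pool. Its residual SD on the log2 scale was 0.10, against a median of 0.18 over the 1991 genes with a mean of at least 50 scaled FPKM, while that of Ubb was 0.30, that of Rps27a 0.40 and that of Uchl3 0.25. Between libraries of the same pool, intervals of Uchl1 lay apart in 0 of 3 pairs in Control, 1 of 3 in Mild IOP and 0 of 3 in Moderate IOP.

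**Figure D2:**
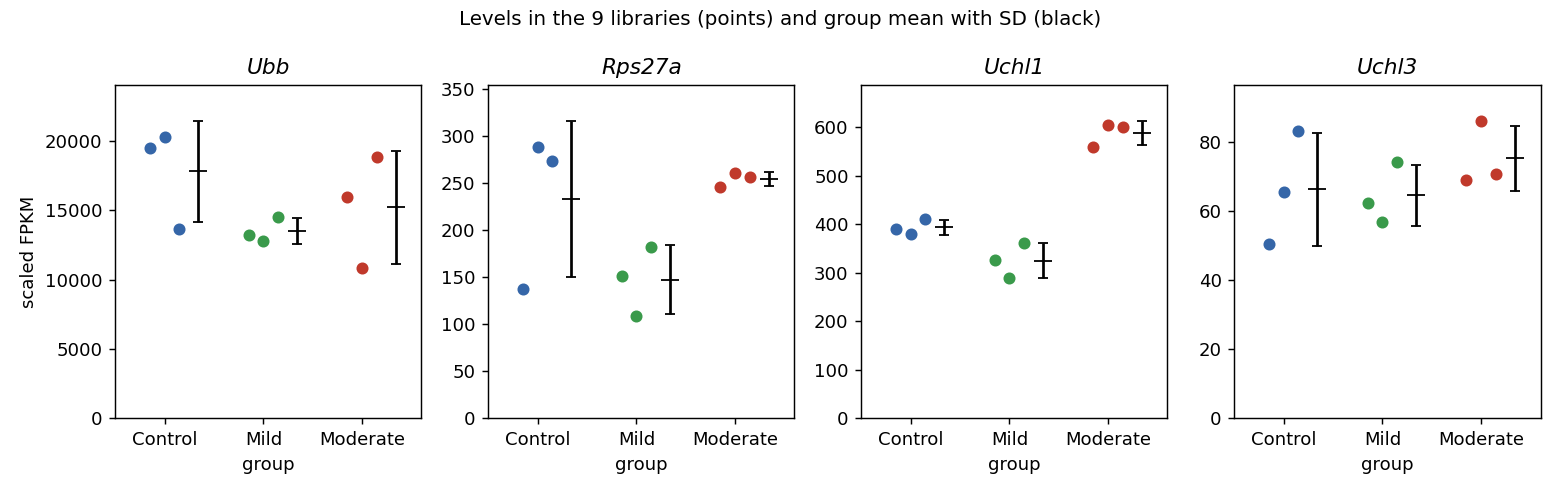
Scaled FPKM (y axis, from 0) of Ubb, Rps27a, Uchl1 and Uchl3 in the 3 libraries of each group (points), with the group mean and SD in black. Uchl1 separates the groups without overlap (290 to 361 in Mild IOP, 381 to 410 in Control and 560 to 605 in Moderate IOP), whereas the points of Ubb and Uchl3 overlap in all groups.

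Uchl1 was also set beside the RGC markers. As a share of the summed level of the 13 RGC markers, it was 21.0, 18.8 and 21.4% in Control replicates 1, 2 and 3, 18.9, 20.6 and 20.8% in Mild IOP and 18.2, 21.4 and 20.3% in Moderate IOP. The ranges of the 3 groups overlapped, so the share did not separate the groups although the level of Uchl1 did. The sum is carried mainly by Sncg (911, 641 and 1389 scaled FPKM in Control, Mild IOP and Moderate IOP) and Nefl (343, 374 and 537). In Mild IOP against Control these 2 markers went opposite ways, with Log2 fold-changes of −0.52 for Sncg and 0.13 for Nefl. In Moderate IOP against Control both were higher, whereas the Log2 fold-change was −0.10 for Pou4f2 and −0.15 for Pou4f3. Of these 13 markers, 3 rose in Moderate IOP against Control, 6 rose in Moderate IOP against Mild IOP and none passed in Mild IOP against Control, with medians of 0.50, 0.57 and −0.17. Over all genes tested, 0.905% and 5.8% rose in the first 2 comparisons. In Mild IOP against Control, 0.00767% rose and 0.383% fell. The medians of all genes were 0.0040, −0.016 and 0.0062 in the same order. With FPKM relative to their sum, none of the 13 markers passed against Control and 4 rose in Moderate IOP against Mild IOP. The rod, amacrine, Muller glia, bipolar and lens sums given above differed between some of the groups as well. The bipolar and Muller glia ranges overlapped between Control and Mild IOP, and the rod ranges between the IOP groups. Genes within a list did not all move together. In Moderate IOP against Control, Log2 fold-changes ran from −0.48 to 0.50 for tested bipolar genes and from −1.48 to 0.49 for tested amacrine genes. The part of any of these cell types in the difference of Uchl1 was not tested.

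**Figure D3:**
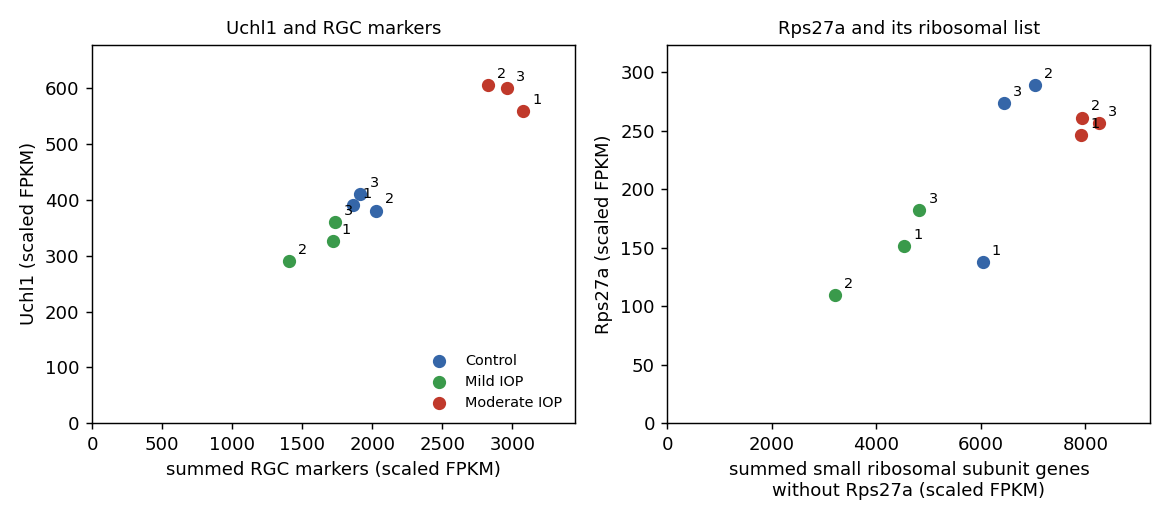
Left, Uchl1 against the summed RGC markers, and right, Rps27a against the summed small ribosomal subunit genes without Rps27a, all in scaled FPKM, with 1 point per library, coloured by group and numbered by replicate. Uchl1 stays at 18.2 to 21.4% of the RGC sum, while Rps27a in Control replicate 1 lies apart at 2.28% of the ribosomal sum.

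Uchl3, the relative of Uchl1, was lower and did not separate the groups. Its row spans chr14:101653967-101696125. It stood at 51.4, 67.1 and 83.6 FPKM in Control, at 65.6, 60.3 and 77.6 in Mild IOP and at 67.8, 86.3 and 69.7 in Moderate IOP. The Control libraries alone spanned 1.63-fold and held the lowest value of the series.

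Scaled, Uchl3 averaged 66.4 ± 16.4 FPKM for Control, 64.6 ± 8.91 for Mild IOP and 75.3 ± 9.504 for Moderate IOP (SD, n = 3 libraries). The Log2 fold-change was −0.02 ± 0.18 (SE), 0.20 ± 0.18 and 0.22 ± 0.18 for Mild IOP against Control, Moderate IOP against Control and Moderate IOP against Mild IOP. The first became 0.08 and the last −0.02 with FPKM relative to their sum. Its values rest on 232 to 546 derived fragments, with interval half-widths of 8.56 to 13.1%. The ratio of Uchl1 to Uchl3 was 4.93 to 7.73 in Control, 4.85 to 5.22 in Mild IOP and 7.02 to 8.48 in Moderate IOP, so all Moderate IOP libraries were above all Mild IOP libraries while Control overlapped both.

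The other 3 genes of this hydrolase family did not pass in any comparison. Bap1, a nuclear deubiquitinase, stood at 46.6 to 71.6 scaled FPKM, and Uchl5, a deubiquitinase of the proteasome, at 36.2 to 52.4. The near-copy Uchl4 was listed at 0 to 1.99 FPKM on at most 14 derived fragments.

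Counts of calls were read against all genes tested. A call required an FDR below 0.1 and a 1.5-fold difference. In Mild IOP against Control, 0.00767% of the 13043 genes passed as higher and 0.383% as lower, and 0 of the 4 selected genes did. In Moderate IOP against Control, 0.905% passed as higher and 0.79% as lower, again with 0 of 4. In Moderate IOP against Mild IOP, 5.8% passed as higher and 2.35% as lower, and Uchl1 and Rps27a were the 2 of 4 on the higher side. These contrasts were used to choose the genes, and nothing is read from the counts. The split depended on scaling. The 756 higher and 306 lower calls between the IOP groups became 590 and 466 without scaling and 327 and 1124 with FPKM relative to their sum, and the 118 and 103 of Moderate IOP against Control became 60 and 216 with the latter.

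Counts of libraries that did not overlap were common in these data. All Mild IOP libraries were above all Control libraries for 7.94% of genes and below for 9.13%, the latter including Uchl1. For Moderate IOP against Control the shares were 9.95% above, including Uchl1, and 9.48% below. For Moderate IOP against Mild IOP they were 14.5% above, including Uchl1 and Rps27a, and 13% below. The full order of Uchl1, with Mild IOP lowest, then Control, then Moderate IOP and no overlap, was found for 1.32% of genes (172 of 13043). It was found for 8 of the 32 other small ribosomal subunit genes, for 1 of 13 RGC markers and for 1 of 5 tested Muller glia markers (Glul).

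The rest of the ubiquitin pathway was taken from lists of 299 other genes, of which 293 were in the files and 279 were tested. In Mild IOP against Control, 0 passed by limma, with 22 at an unadjusted p below 0.05. In Moderate IOP against Control, 4 of the 279 passed, 3 higher and 1 lower, beside 0.905% higher and 0.79% lower over all genes tested. The E2 conjugating enzyme Ube2d1 rose by 0.94 (21.0 to 41.9 scaled FPKM), and the E3 ligases Rnf13 and Rnf126 rose by 0.91 and 0.81. Anapc2, a subunit of the anaphase-promoting complex, fell by 0.74 (42.7 to 25.2 scaled FPKM). With single libraries left out, Rnf13 kept its call in 9 of 9 fits, Rnf126 and Anapc2 in 6 each and Ube2d1 in 4. The median over the 279 genes was 0.0060, near the 0.0040 of all genes.

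In Moderate IOP against Mild IOP, 13 of the 279 passed, 8 higher and 5 lower. Both shares were below those over all genes tested (5.8% higher and 2.35% lower). The balance turned with scaling, to 7 higher and 13 lower without it and to 3 higher and 36 lower with FPKM relative to their sum. The median of all genes tested moved as well, to −0.087 and −0.23 in the same order, so a shift was not particular to the listed genes. Among the higher genes were the ubiquitin-like Ubl5 (1.06), Fau (0.82), Nedd8 (0.77) and Gabarapl2 (0.59), the elongin B gene Tceb2 (0.97), the ligase subunit Skp1a (0.71) and the E2 enzyme Ube2k (0.70). Fau is likewise a fusion of a ubiquitin-like protein with a small ribosomal subunit protein, so it stands with Rps27a in the small ribosomal subunit list. The lower genes were the proteases Usp20 (−0.76), Usp47 (−0.62) and Usp10 (−0.61), Anapc2 (−0.71) and the ligase Ubr7 (−0.61). Of the 9 fits that each left out a library, the call was kept in 3 for Ubr7, 4 for Usp10, 4 for Gabarapl2, 6 for Usp47 and 8 for Usp20, and in all 9 for the other genes named here. FDR of these genes was 0.0090 to 0.081 by limma with Benjamini-Hochberg adjustment. The median of all listed genes was −0.039 beside −0.016 over all genes.

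By role, the ubiquitin-like list (17 tested) held 4 of the 8 higher calls and had a median of 0.38, and the ubiquitin-specific proteases (48 tested) held 3 of the 5 lower calls with a median of −0.10. Of 34 genes in the E2 list 1 rose, and of 107 E3 ligases and adaptors 2 rose and 2 fell. None passed of 9 genes in the E1 list, 26 in the list of other deubiquitinases and 34 receptors. Of the ubiquitin-like list, 3 rose without scaling and 1 with FPKM relative to their sum.

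**Figure D4:**
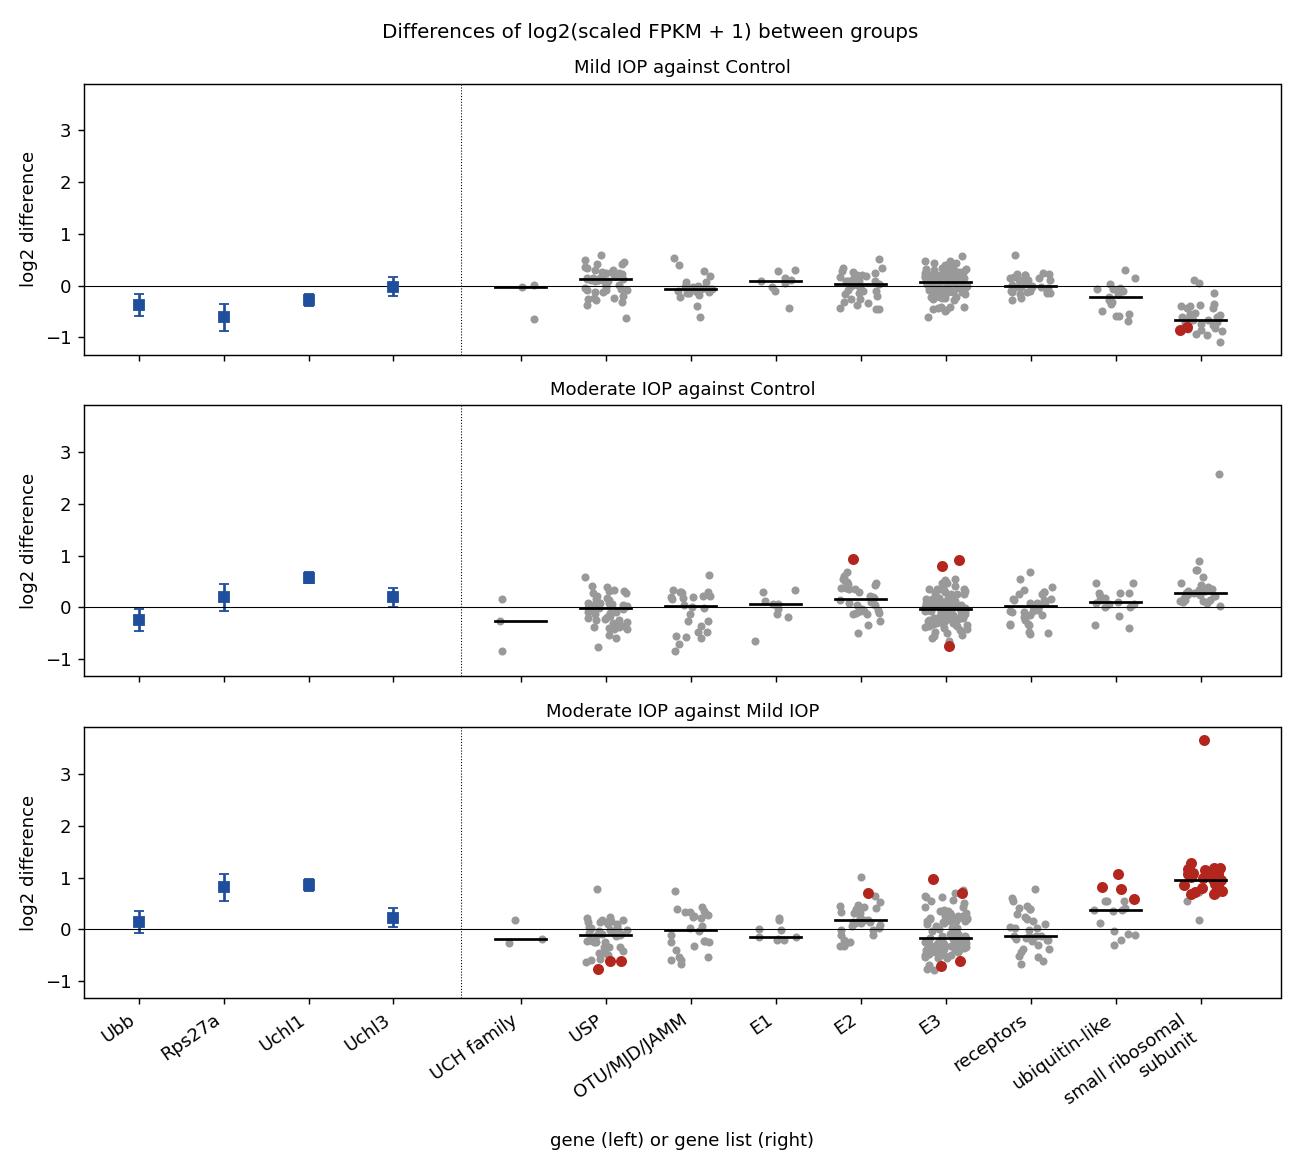
Log2 fold-change (y axis) of Ubb, Rps27a, Uchl1 and Uchl3 with SE (blue squares, left) and of the tested genes of each pathway list (points, right, red where called, black bar at the median) in the 3 comparisons. Uchl1 lies at −0.28, 0.58 and 0.86, the median of the small ribosomal subunit genes at −0.66, 0.29 and 0.96, and the medians of the protease, other deubiquitinase, E1, E2, E3 and receptor lists between −0.17 and 0.17.

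Mean levels of the highest other pathway genes, in scaled FPKM, were 752 for the ligase Rnf187, 721 for Tceb2, 625 for the receptor Sqstm1, 586 for Nedd8 and 561 for Sumo2. Means in the deubiquitinase lists were lower, with 257 for Cops6, 169 for Otub1, 75.7 for Usp22 and 73.9 for Usp21. Over the 9 libraries, Uchl1 averaged 436 and Uchl3 68.8. The lists group genes by family, and enzyme activity was not measured. Uchl1 thus had the highest mean of the tested genes in the deubiquitinase lists. The highest genes in the lists of activating and conjugating enzymes were Uba1 (95.6), Sae1 (84.9), Ube2v1 (173) and Ube2m (129). Nsfl1c, a ubiquitin receptor of the p97 system, stood at 164.

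Genes with the most similar pattern over the 9 libraries were ranked by Pearson correlation among 6042 genes, as a description in which libraries share their pools. For Ubb they were Lrpprc (r = 0.94), Gm1821 (0.92, both rows summed, one of them at the Ubb locus) and Prkag1 (0.92). For Rps27a they were Srm (0.96), Pdcd5 (0.95) and Txndc9 (0.95). For Uchl1 they were Cartpt (0.99), a neuropeptide gene at 408, 310 and 885 scaled FPKM in Control, Mild IOP and Moderate IOP, Ndufb3 (0.98), a subunit of respiratory complex I at 371, 259 and 597, and Sfr1 (0.98). For Uchl3 they were Nae1 (0.96), a subunit of the enzyme that activates Nedd8, Rpf2 (0.95) and Zfp825 (0.95). No gene was among the closest of more than 1 selected gene.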

How the data were processed

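Total RNA of immunopanned RGCs was made into cDNA with the SMART-seq v4 oligo-dT kit and Nextera XT, and sequenced as read pairs of 100 bases on a HiSeq2500. The deposited FPKM were estimated by the authors per gene locus and library with cufflinks on mm10, with an interval and a mark for failed estimates. The study's methods name bowtie2 as aligner and the submitters' processing notes name TopHat2. No count tables were used here, and the authors' cuffdiff tests were not used.

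FPKM of loci with 1 symbol were summed, scaled by median-of-ratios factors and taken as log2 with a pseudocount of 1. Genes with a mean of at least 0.5 and no failed estimate (2 symbols failed) were fitted by limma 3.58.1 in R 4.3.3 with a variance trend over all 9 libraries, with Benjamini-Hochberg adjustment, and called at FDR below 0.1 and 1.5-fold. The fit was tested on simulated data. Fragments were derived as (2 × FPKM / (upper bound − FPKM)) squared, and depth from transcripts of at least 2000 nt with at least 100 such fragments. Intervals cover counting and assignment error only. Sequences came from GENCODE M21, using Python 3.11.15. The longest transcript with a RefSeq match was used.

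The genes and lists were chosen with earlier results of these data known. Named genes are the 4 selected genes, the other ubiquitin precursors (not reported here), the other hydrolases of the family, listed pathway genes passing the call, the 2 highest of each pathway list, and the 3 genes most correlated with each selected gene among those with a mean of at least 10. Groups were taken from the sample titles. Alternatives covered scaling, pseudocount, filter, failed estimates, variance from the compared groups, a replicate block and leaving out each library.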

Additional observations from a re-analysis of the deposited data

Results flagged for a closer look

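For Uchl1, every Mild IOP library was below and every Moderate IOP library above every Control library, so the IOP groups stood on opposite sides of Control. The difference between the IOP groups was 0.858 on the log2 scale and was part of the choice of the gene, so it was not tested. The same opposed order was seen in 3 other pathway genes named here, where limma gave the difference between the IOP groups. These were 1 of 107 tested E3 ligases and adaptors, 1 of 17 ubiquitin-like genes and 1 of 34 genes in the E2 list. The difference was 0.969 for Tceb2 (FDR = 0.009), 0.819 for Fau (FDR = 0.014) and 0.703 for Ube2k (FDR = 0.023). Against Control none of these 3 passed, with FDR of 0.2 to 0.63 for Mild IOP and 0.2 to 0.42 for Moderate IOP. This order was found for 1.32% of all genes tested.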

How the results depend on the processing

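Of 207 alternative values for the 4 selected genes, 205 moved by less than the spread between libraries of a group. The exceptions were Uchl1 in Moderate IOP against Control (0.438) and against Mild IOP (0.619), both with FPKM relative to their sum. Leaving out single libraries gave −0.561 to −0.272, −0.424 to −0.0171 and −0.0338 to 0.362 for Ubb in Mild IOP against Control, Moderate IOP against Control and Moderate IOP against Mild IOP, −0.957 to −0.421, −0.144 to 0.388 and 0.615 to 0.979 for Rps27a, −0.359 to −0.204, 0.556 to 0.617 and 0.779 to 0.936 for Uchl1, and −0.199 to 0.155, 0.0217 to 0.376 and 0.119 to 0.326 for Uchl3.

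The 51 genes called in Mild IOP against Control became 15 with FPKM relative to their sum, 23 with no filter on low values, 80 with a filter at a mean of 5 and 23 with variance from the compared groups alone, and 15 (without Mild IOP replicate 2) to 181 (without Mild IOP replicate 3) when libraries were left out. The 221 genes of Moderate IOP against Control became 133 with variance from the compared groups alone, and 61 (without Control replicate 1) to 262 (without Control replicate 3). The 1062 genes between the IOP groups became 444 (without Mild IOP replicate 2) to 1105. Pathway genes ranged over 0 to 3, 1 to 10 and 8 to 18 in the 3 comparisons when libraries were left out. The 4 pathway genes of Moderate IOP against Control were 2 with variance from the compared groups alone, and the 13 between the IOP groups were 20 without scaling (7 higher, 13 lower) and 39 with FPKM relative to their sum (3 higher, 36 lower). Of 289 alternative values for named pathway genes, 240 kept their call, 49 lost it and 0 reversed. The cause of these changes was not tested.

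Replicate numbers are shared between groups, but libraries with the same number did not deviate together (correlation of deviations −0.0051 to 0.044, against −0.051 to 0.042 for different numbers). Whether such libraries shared a preparation or a run cannot be told from these correlations. With a replicate block, 25 genes were called in Mild IOP against Control and 132 in Moderate IOP against Control.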
